A study of Homo sapiens with 4 samples.

Results

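Subtelomeric summits were the summits within 2 Mb of either end of chromosomes 1 to 22 and X, taken from 4 peak lists of 22RV1, an established human prostate cancer cell line. A summit is the position of highest signal in a deposited interval, and membership used its position alone (hg38), never its level. The lists held 1196 such summits among 25668 on these chromosomes and 26756 on all contigs. Subtelomeres are the gene-rich stretches next to the telomeres. They carry many tandem repeats and recently duplicated segments, and short reads from such sequence are hard to place at 1 position.

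Each list came from 1 CUT&Tag library. The 4 groups were cells given PD0332991 (palbociclib, an inhibitor of the kinases CDK4 and CDK6), the control of that treatment, cells with RB knocked down by siRNA, and the control of that knockdown. RB is the retinoblastoma protein that these kinases phosphorylate, and the series concerns phosphorylated RB, the transcription factor ETS1 and the sensitivity of cells to such inhibitors. The sources used here give no dose, time, siRNA sequence or antibody target. The labels name the assay CUT&Tag, in which an antibody-tethered transposase cuts the chromatin, while their protocol describes fixed and sonicated chromatin with an input. Values are listed below in the order PD0332991 control, PD0332991, RB siRNA control and RB siRNA.

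The recovered depth was 2458776, 1909342, 3479667 and 2423286 treatment fragments. The recovered background was far sparser, with 34562, 9592, 36250 and 7641 read ends, fewest for the PD0332991 and RB siRNA lists. Levels are fragments at the summit per 1000000 treatment fragments of the library (FPM), so that 1 fragment equals 0.407, 0.524, 0.287 and 0.413 FPM. With 1 library per group there is no replicate check and no test between groups, and every interval given is a 95% interval for counting error only. The authors' −log10 q was listed as 0 for 96.1%, 97.5%, 98.1% and 98.5% of intervals, so few listed summits would pass a limit on q. Each interval holds 1 summit, so a high summit can hide lower ones beside it. Of 12 prostate genes, 1, 2, 1 and 1 (8.33%, 16.7%, 8.33% and 8.33%) had a summit within 1000 bp of a gene end, against 16.9%, 7.75%, 17.3% and 6.65% of all protein-coding genes and 0, 0, 0 and 1 of 10 genes of other cell types. These counts are too small and too near the share of all genes to check the labelled cell type.

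Some of the highest subtelomeric summits lay beside promoters built of tandem repeats. Sequences are from RefSeq (GRCh38.p14), from 250 bases before to 50 after the annotated start, read 5′ to 3′ on the strand of the gene. The first 5 belong to subtelomeric summits and hold a word of 12 letters at least 3 times without overlap. They are not all among the highest: RAD21L1 had 21.6 to 54.5 FPM. CANX (16.3 to 34.6 FPM) and YES1 (7.18 to 15.3 FPM) carried summits in all 4 libraries and hold no such word. High promoters with a low repeat score, such as that of FARP2, are not printed, so these windows do not compare levels with and without a repeat. DYNC2I1 is the subtelomeric protein-coding promoter with the strongest repeat among those without a summit within 1000 bp of the start. Capitals mark the copies of the word.
CIMAP1D promoter, chr19:491575-491874, minus strand: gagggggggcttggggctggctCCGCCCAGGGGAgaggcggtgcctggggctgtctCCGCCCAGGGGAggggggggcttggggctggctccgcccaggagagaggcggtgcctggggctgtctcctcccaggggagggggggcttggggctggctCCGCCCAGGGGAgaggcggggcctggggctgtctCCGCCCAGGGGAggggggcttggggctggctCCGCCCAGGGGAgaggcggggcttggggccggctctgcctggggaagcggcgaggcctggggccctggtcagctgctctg
MUC8 promoter, chr12:132474538-132474837, minus strand: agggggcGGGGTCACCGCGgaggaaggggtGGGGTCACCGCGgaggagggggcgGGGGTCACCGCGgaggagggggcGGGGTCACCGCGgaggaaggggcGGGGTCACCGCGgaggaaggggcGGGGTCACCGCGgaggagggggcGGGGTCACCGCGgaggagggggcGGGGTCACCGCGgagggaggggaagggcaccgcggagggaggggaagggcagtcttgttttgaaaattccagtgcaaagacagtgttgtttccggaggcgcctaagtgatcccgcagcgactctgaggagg
SPATC1L promoter, chr21:46184410-46184709, minus strand: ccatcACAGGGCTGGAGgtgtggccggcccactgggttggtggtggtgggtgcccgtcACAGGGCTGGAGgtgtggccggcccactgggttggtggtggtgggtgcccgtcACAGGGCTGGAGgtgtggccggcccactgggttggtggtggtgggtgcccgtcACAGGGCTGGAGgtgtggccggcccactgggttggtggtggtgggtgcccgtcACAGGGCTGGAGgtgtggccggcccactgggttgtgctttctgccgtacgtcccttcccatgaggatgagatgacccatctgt
LMF2 promoter, chr22:50507653-50507952, minus strand: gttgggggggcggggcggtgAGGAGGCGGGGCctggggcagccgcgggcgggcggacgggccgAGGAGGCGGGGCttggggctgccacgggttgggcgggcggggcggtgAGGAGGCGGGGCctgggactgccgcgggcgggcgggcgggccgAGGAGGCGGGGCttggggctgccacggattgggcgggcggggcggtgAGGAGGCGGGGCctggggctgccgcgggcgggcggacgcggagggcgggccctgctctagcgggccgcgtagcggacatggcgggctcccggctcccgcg
RAD21L1 promoter, chr20:1225794-1226093, plus strand: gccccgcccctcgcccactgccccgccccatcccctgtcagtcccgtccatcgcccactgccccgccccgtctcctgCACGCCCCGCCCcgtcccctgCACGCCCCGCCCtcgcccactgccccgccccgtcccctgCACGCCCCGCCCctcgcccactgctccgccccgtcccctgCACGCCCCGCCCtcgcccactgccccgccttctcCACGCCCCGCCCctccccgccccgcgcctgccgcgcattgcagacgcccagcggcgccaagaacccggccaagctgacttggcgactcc
CANX promoter, chr5:179698537-179698836, plus strand: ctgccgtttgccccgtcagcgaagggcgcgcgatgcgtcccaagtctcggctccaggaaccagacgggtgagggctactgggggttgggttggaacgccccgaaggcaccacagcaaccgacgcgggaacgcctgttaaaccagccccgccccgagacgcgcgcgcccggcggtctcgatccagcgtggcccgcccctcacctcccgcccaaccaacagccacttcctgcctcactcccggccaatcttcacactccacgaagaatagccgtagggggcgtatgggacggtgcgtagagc
YES1 promoter, chr18:812193-812492, minus strand: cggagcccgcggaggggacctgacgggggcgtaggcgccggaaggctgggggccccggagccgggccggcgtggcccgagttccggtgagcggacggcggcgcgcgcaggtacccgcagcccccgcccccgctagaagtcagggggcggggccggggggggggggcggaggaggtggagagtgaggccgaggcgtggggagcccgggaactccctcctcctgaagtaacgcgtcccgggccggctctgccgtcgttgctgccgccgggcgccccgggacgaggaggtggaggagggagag
DYNC2I1 promoter, chr7:158838995-158839294, plus strand: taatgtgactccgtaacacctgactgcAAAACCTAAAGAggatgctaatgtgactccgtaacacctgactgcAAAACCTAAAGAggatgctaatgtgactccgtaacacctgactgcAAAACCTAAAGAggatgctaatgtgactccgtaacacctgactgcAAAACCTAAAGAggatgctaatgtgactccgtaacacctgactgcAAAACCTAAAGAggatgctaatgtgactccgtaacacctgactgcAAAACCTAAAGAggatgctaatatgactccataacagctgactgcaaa

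The CIMAP1D window held the word CCGCCCAGGGGA 5 times. MUC8 held GGGGTCACCGCG 8 times, SPATC1L held ACAGGGCTGGAG 5 times, LMF2 held AGGAGGCGGGGC 5 times and RAD21L1 held CACGCCCCGCCC 5 times. In DYNC2I1 the word AAAACCTAAAGA occurred 6 times. The summit lay inside the printed window at SPATC1L, 134 to 135 bases upstream of the start in the 3 libraries that listed it, and at RAD21L1, 124 to 157 bases upstream in all 4. At LMF2 it lay inside in 3 libraries and 357 bases upstream, outside the window, in the PD0332991 control. At CIMAP1D it lay 286 to 290 bases upstream and at MUC8 405 to 406, just beyond the windows.

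Subtelomeric summits were higher than the other summits of the same list in all 4 libraries. The median level was 7.52 FPM (6.10 to 8.95, n = 442) against 1.63 (n = 9185) in the PD0332991 control and 15.7 FPM (13.1 to 23.0, n = 148) against 3.67 (n = 3023) under PD0332991. It was 4.60 FPM (3.74 to 5.46, n = 467) against 1.15 (n = 9872) in the RB siRNA control and 18.2 FPM (14.9 to 27.6, n = 139) against 4.13 (n = 2392) after RB siRNA. The ratio of medians was 4.63, 4.29, 4.0 and 4.4. The higher medians of the PD0332991 and RB siRNA lists, for members and others alike, came with fewer and wider intervals. They also came with fewer background read ends, whose part in this was not tested. Levels over whole lists are therefore not compared between libraries.

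The share of members rose with the level of the summit. Members made up 4.59% (4.18 to 5.03), 4.67% (3.96 to 5.46), 4.52% (4.12 to 4.94) and 5.49% (4.64 to 6.45) of all summits, on 3.04% of the chromosome length. Listed intervals covered 83.5, 80.3, 86.8 and 83.3 Mb of the sequence within 2 Mb of the ends, which is most of it. With 1 summit per interval, the share of all summits thus depends on interval width and is not a count of separate binding sites. Among summits of at least 20 FPM they were 19.6%, 14.8%, 26.3% and 17.96%. Among those of at least 100 FPM they were 31 of 108 (28.7%, 20.4 to 38.2), 23 of 87 (26.4%, 17.6 to 37.0), 12 of 29 (41.4%, 23.5 to 61.1) and 23 of 56 (41.1%, 28.1 to 55.02). By the authors' −log10 p of at least 5, members were 87 of 373 summits (23.3%), 22 of 78 (28.2%), 56 of 193 (29.0%) and 20 of 38 (52.6%). At that p the lowest summit had 29.3, 104.7, 27.6 and 131.6 FPM, so the same p asks for a higher level in the PD0332991 and RB siRNA lists. Among these strongest summits alone, the median of the members after RB siRNA was 185.5 FPM against 208.0 for the others.

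**Figure D1:**
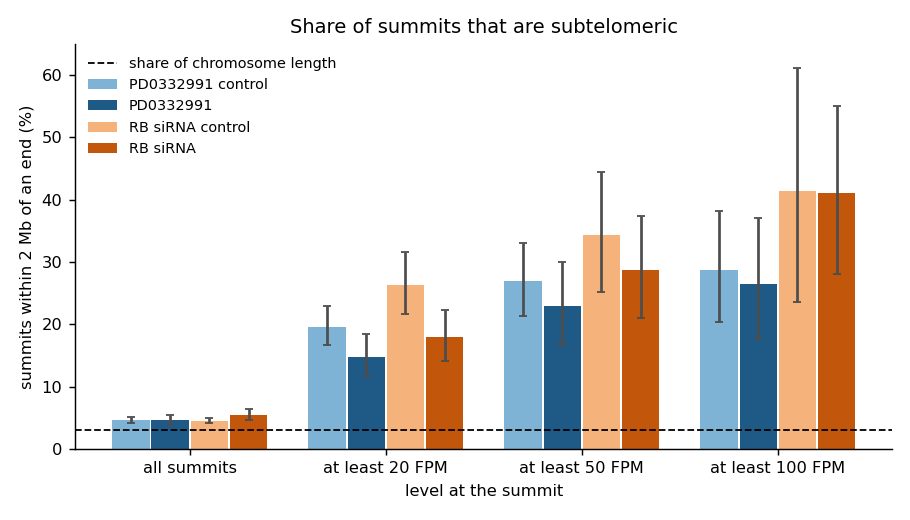
Share (%) of summits within 2 Mb of a chromosome end, among all summits and among those of at least 20, 50 and 100 FPM, for the 4 libraries. Bars are shares, lines are exact binomial 95% intervals and the dashed line is the share of chromosome length (3.04%); the shares start at 4.52% to 5.49% and reach 26.4% to 41.4% at 100 FPM.

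The level was lower beyond 2 Mb than within it in all 4 libraries, and went on falling further in. Within 2 Mb the 2 treated lists showed no steady fall. In the PD0332991 control the median was 8.95 FPM within 0.5 Mb of an end, 8.54 from 0.5 to 1 Mb, 6.10 from 1 to 2 Mb, 4.47 from 2 to 3 Mb, 2.44 from 3 to 5 Mb, 2.03 from 5 to 10 Mb and 1.63 beyond 10 Mb. In the RB siRNA control the same distances gave 5.75, 5.60, 3.45, 2.01, 2.01, 1.44 and 1.15 FPM. Under PD0332991 the median was 15.97, 23.0 and 15.2 FPM in the 3 nearest bins and 3.67 beyond 10 Mb, and after RB siRNA it was 14.4, 16.9 and 20.2 FPM and 3.71. Summits of at least 20 FPM numbered 1.88 per Mb of listed interval in the outermost 0.5 Mb of the PD0332991 control and 0.140 per Mb beyond 10 Mb.

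**Figure D2:**
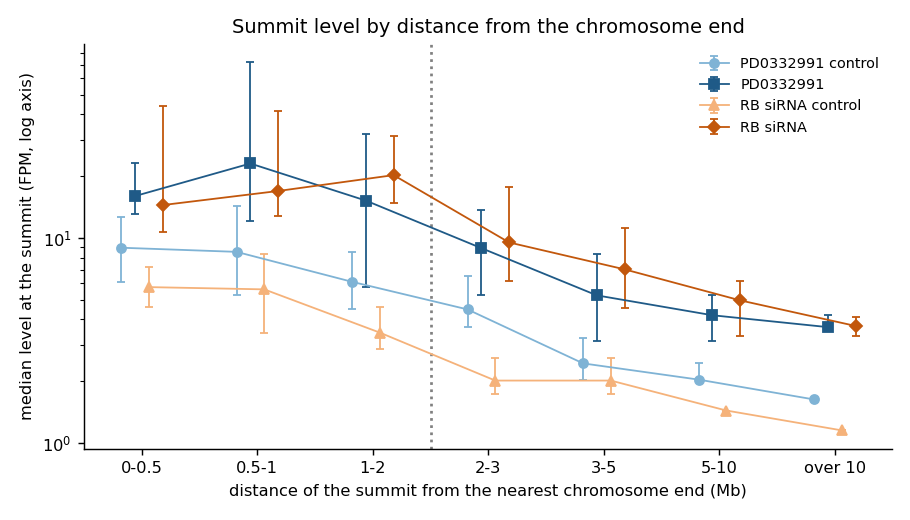
Median level at the summit (FPM, log axis) by distance from the nearest chromosome end (Mb) in the 4 libraries. Lines through the points are 95% order-statistic intervals and the dotted line is the limit of 2 Mb; medians fall from 5.75 to 15.97 FPM in the outermost bin to 1.15 to 3.71 FPM beyond 10 Mb.

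Across the 2 Mb limit the medians moved in no common direction. From 1.8 to 2 Mb the median was 6.10 (n = 36), 6.81 (n = 15), 2.87 (n = 49) and 16.1 FPM (n = 14). From 2 to 2.2 Mb it was 6.30 (n = 32), 12.3 (n = 10), 2.01 (n = 48) and 9.90 FPM (n = 13), lower in 2 libraries and higher in the other two.

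The difference was present at genes and between them. At gene ends, within 1000 bp of either end of a protein-coding gene, the medians were 16.1 against 4.88 FPM, 28.8 against 7.86, 10.3 against 3.45 and 29.5 against 7.43. Inside genes they were 5.29 against 1.22 FPM, 14.7 against 2.095, 3.45 against 1.15 and 18.98 against 2.48. Between genes they were 4.47 against 1.22 FPM, 12.05 against 2.095, 2.87 against 0.862 and 9.90 against 1.65. Over these 12 comparisons the ratio of medians ran from 3.0 to 7.67.

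Nearly every chromosome showed the same order. Of chromosomes with at least 3 members, the members had the higher median on 23 of 23, 18 of 18, 22 of 23 and 19 of 19. In the RB siRNA control the medians of chromosome 15 were equal. Summits were listed at 41 of the 46 ends in every library, and the ends without any were the short-arm ends of chromosomes 13, 14, 15, 21 and 22. Whether the reference holds sequence at those ends was not checked, so the absence is not a result on their level. All 46 ends are counted in the 3.04% of the chromosome length. At least 1 summit of 20 FPM or more stood at 38, 34, 36 and 34 ends.

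The 19p end had the highest summed rank of its medians over the 4 libraries. Its medians were 50.02 FPM (n = 14), 191.2 (n = 5), 24.1 (n = 16) and 204.1 (n = 6), followed by 4p with 26.0, 136.7, 12.4 and 160.9 FPM. The 6p end was lowest, with 1.22 (n = 9), 2.095 (n = 3), 1.72 (n = 10) and 5.36 FPM (n = 1). Ends with few summits have uncertain medians: at 6q the median was 2.59 to 7.22 FPM beside a summit of 241.7 to 738.0 FPM at WDR27.

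Subtelomeric genes were dense, but a smaller share of them had a summit. Protein-coding genes numbered 15.9 per Mb within 2 Mb of the ends and 6.30 per Mb elsewhere. The share of summits at a gene end was nevertheless 30.3% (26.1 to 34.8) against 29.5% in the PD0332991 control and 28.9% (24.8 to 33.3) against 28.5% in the RB siRNA control. It was lower for members under PD0332991, 30.4% (23.1 to 38.5) against 41.2%, and after RB siRNA, 35.97% (28.01 to 44.5) against 44.2%. The order under PD0332991 turned with a limit of 1 Mb (44.3% against 40.6%) and among summits of −log10 p of at least 5 (40.9% against 30.4%). After RB siRNA the interval includes the share of the others. There the order turned under the same settings (45.9% against 43.7% and 45.0% against 27.8%). Of 1464 subtelomeric protein-coding genes, 162 (11.1%), 58 (3.96%), 163 (11.1%) and 63 (4.30%) had a summit at an end, against 17.3%, 8.05%, 17.8% and 6.83% of the 18510 others. A summit counts for every gene with an end within 1000 bp, so sharing a summit does not lower this share. The number of listed summits limits it: the PD0332991 control held 442 for the 1464 subtelomeric genes and 9185 for the 18510 others. The part of this limit in the lower share was not tested.

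Further measures of the lists moved with membership. The intervals of members were shorter, with median widths of 118 against 195 kb, 303 against 578, 114 against 184 and 380 against 754. A background raised above the genome-wide level stood at 19.5% of members against 7.84% of others, 4.73% against 2.71%, 21.4% against 6.94% and 9.35% against 1.798%. The part of copy number, of the placing of repeat reads and of the raised background in the level was not tested. With the summits at the genome-wide background alone, the members' median was 8.13 against 1.63, 16.8 against 3.67, 5.17 against 1.15 and 19.2 against 3.71 FPM. With only 34562, 9592, 36250 and 7641 background read ends, a site can stand at that level because no such read fell near it. This subset therefore cannot set aside copy number, repeat reads or a raised background.

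Summits matched across libraries can be compared at nearby positions, each level being read at the library's own summit. A match was a mutual nearest neighbour at most 250 bp away, and 34 subtelomeric and 349 other summits were matched in all 4 libraries with at least 5 FPM in each. The median geometric mean was 73.2 FPM for the members and 19.6 for the others. Of the 34, 15 lay at a gene end, 12 inside a gene and 7 between genes, and the gene-end share was 44.1% against 69.9%. The RB siRNA control was the lowest library at 29 of the 34 and PD0332991 the highest at 20. The same libraries were lowest at 264 and highest at 226 of the 349 other summits.

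**Figure D3:**
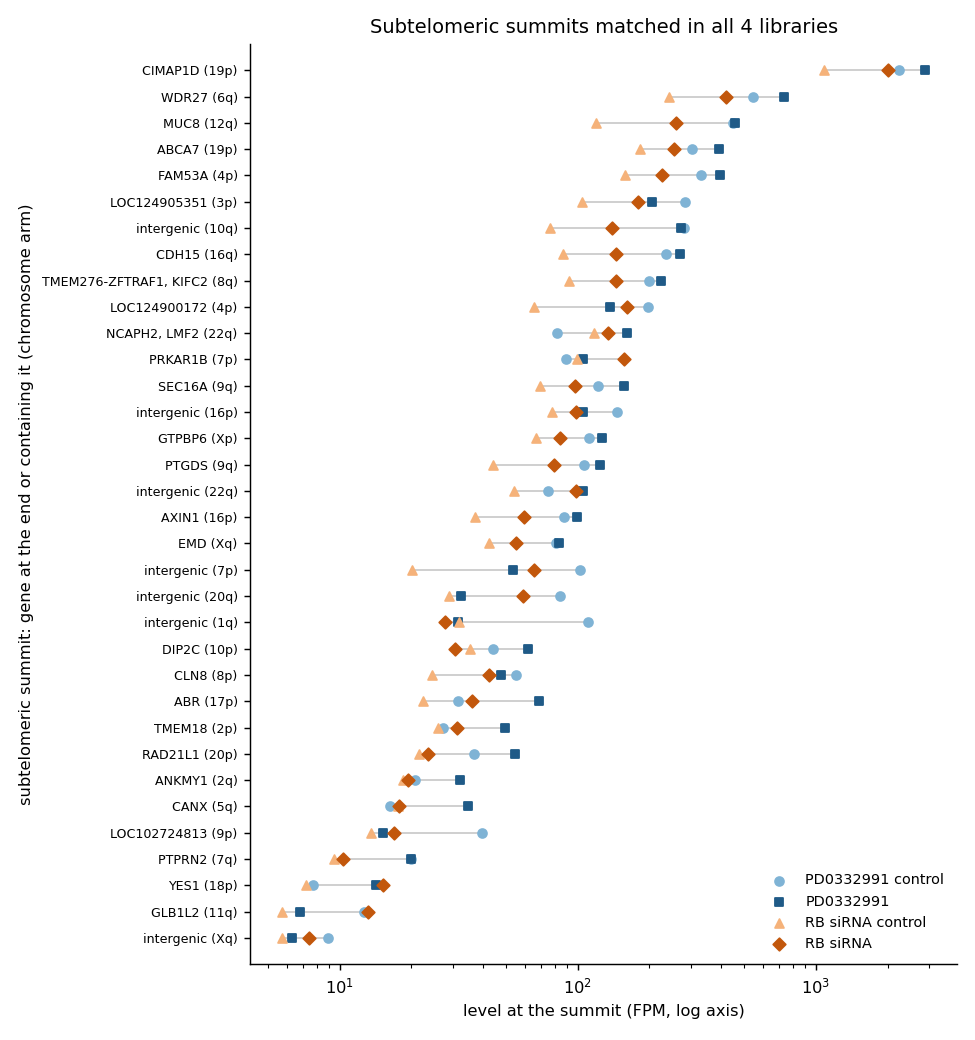
Level (FPM, log axis) of the 34 subtelomeric summits matched in all 4 libraries, with 1 point per library, named by the gene at whose end they lie or that contains them and by chromosome arm. CIMAP1D stands above all others with 1077 to 2882 FPM, and the RB siRNA control is lowest at 29 of the 34.

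CIMAP1D, a member of a family of ciliary microtubule proteins, had the highest summit of each list on chromosomes 1 to 22 and X, at position 491914 of 19p in both controls. Its level was 2224, 2882, 1077 and 2007 FPM, from 3747 to 5502 fragments. WDR27, a WD-repeat protein gene on 6q, had 545.4, 738.0, 241.7 and 420.5 FPM at its gene end. None of the promoter windows counted below starts within 1000 bp of the WDR27 summit, so it is not part of the repeat and motif counts. MUC8, a mucin gene on 12q, had 449.4, 456.7, 119.0 and 259.6 FPM. At these 3 positions PD0332991 was highest and the RB siRNA control lowest, by 2.68, 3.05 and 3.84 times.

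Inside genes, ABCA7, a lipid transporter on 19p, had 302.2, 392.3, 183.1 and 252.5 FPM, 2386 bp from the nearest gene end. FAM53A on 4p had 330.7, 396.5, 157.5 and 224.9 FPM. CDH15, the gene of a muscle cadherin on 16q, had 233.9, 267.6, 87.1 and 145.3 FPM. These 3 followed the same order of libraries as CIMAP1D.

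An intergenic summit of 10q had 278.6, 272.3, 76.2 and 139.5 FPM. At the end of KIFC2, a kinesin gene on 8q that adjoins TMEM276-ZFTRAF1, the level was 199.7, 223.1, 92.0 and 144.8 FPM. LOC124900172, inside PCGF3 on 4p, had 197.3, 136.7, 65.2 and 160.9 FPM. LOC124905351, about 10.5 kb from the end of 3p, had 282.7, 205.3, 104.6 and 178.7 FPM. In the last pair the PD0332991 library was below its control.

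Some high members were missing from 1 list. FARP2, on 2q, had 1148, 402.9 and 630.5 FPM under PD0332991, in the RB siRNA control and after RB siRNA. No interval of the PD0332991 control covered that position. HCN2, a pacemaker channel gene on 19p, had 588.9, 300.03 and 473.7 FPM in the PD0332991 control, the RB siRNA control and RB siRNA. Under PD0332991 its position lay in the interval of CIMAP1D, whose summit is 112.3 kb away and higher. SPATC1L, on 21q, had 323.7, 133.6 and 219.9 FPM in those same 3 libraries, and no interval of the PD0332991 list covered it. At HCN2 the missing entry therefore does not show a low level. For FARP2 and SPATC1L the list without them gives no level, and a level too low to be listed is possible.

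Close to the ends, within 30 kb, 15, 7, 10 and 5 summits were listed, and most of them stood 10.1 to 11.5 kb from the end. On 5p, 10.6 to 10.9 kb from the end, the level was 1306, 749.5 and 337.4 FPM in the first 3 lists. There the background term of the authors' fold, on the scale of the background library, was 9.93, 2.92 and 6.00 against a genome-wide level of 0.00245, 0.000649 and 0.00234, and the authors' fold was 4.22, 2.09 and 1.89. The RB siRNA list held no summit within 30 kb of the 5p end. The nearest listed summits of the PD0332991 control were on 4p, 7p and 9p, with 26.0, 21.1 and 39.5 FPM. Those of PD0332991 were on 7p, 18p and 9p, with 16.8, 77.5 and 15.2 FPM, and those of the RB siRNA control on 4p, 7p and 18p, with 9.48, 6.61 and 40.5 FPM. After RB siRNA they were on 1p, 9p and 12p, with 99.5, 16.9 and 133.7 FPM. The sequence under these summits was not read, and where the reference sequence begins was not checked, since no genome was used here.

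Tandem repeats were counted over all 34789 RefSeq promoter windows of 300 bases, a measure chosen after the levels were seen. The repeat score is the highest share of bases that equal the base a fixed 10 to 100 positions further on, and a score of at least 55% was counted as a repeat. Such scores were found in 227 windows (0.653%), of which 75 (33.0%) were subtelomeric, although 5.93% of all windows are. Among subtelomeric windows the share was 3.28% with no summit within 1000 bp of the start, 3.62% with a highest summit under 20 FPM, 4.60% at 20 to 100 FPM and 42.9% (6 of 14, 17.7 to 71.1) at 100 FPM or more. Among other windows it was 0.422%, 0.513%, 1.24% and 8.33% (3 of 36, 1.75 to 22.5).

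Windows can share a summit. The 14 subtelomeric windows at 100 FPM or more belong to 9 summit positions, of which 6 had a repeat window, those of CIMAP1D, MUC8, SPATC1L, LMF2, GTPBP6 and TXNL4A. The 36 other windows belong to 27 positions, of which 3 had one (ADSS1, GRSF1 and TTLL12). The score was 63.2% with a period of 34 bases at CIMAP1D, 65.3% with 23 at MUC8, 86.2% with 53 at SPATC1L, 80.5% with 90 at LMF2 and 64.0% with 100 at RAD21L1. It was 34.96% at CANX, whose window belongs to a start inside the gene, and 41.9% at YES1, against a median of 34.6% over all windows. These genes were named after their values were seen. At FARP2, whose summit reached 1148 FPM, it was 38.4%.

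A repeat alone did not mark a summit. Of the 75 subtelomeric repeat windows, 57 (76.0%) had no summit within 1000 bp in any list, against 84.4% of all subtelomeric windows. The windows with a summit had a median GC content of 72.7% and 30 CG dinucleotides, and those without 66.0% and 20. DYNC2I1, with a score of 98.8% and no summit, has a GC content of 43.7%, against 68.3% to 83.7% at the 5 printed repeat windows with a summit.

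**Figure D4:**
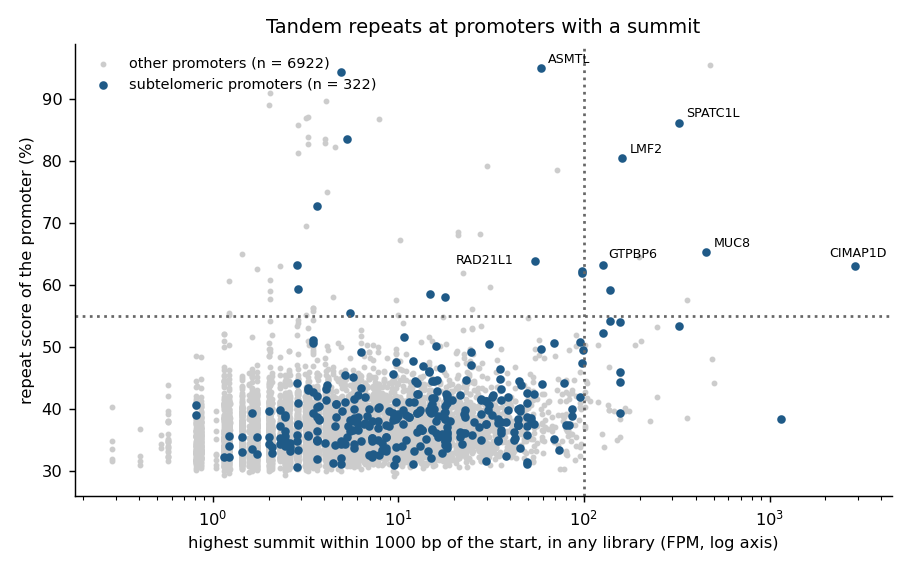
Repeat score (%) of promoter windows against the highest summit within 1000 bp of the start in any library (FPM, log axis), for 322 subtelomeric and 6922 other windows with a summit. Dotted lines mark a score of 55% and a level of 100 FPM; CIMAP1D, MUC8, SPATC1L, LMF2 and GTPBP6 stand in the upper right.

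The subtelomeric windows were GC-rich. Their median GC content was 66.3% against 58.7%. The GC box GGGCGG, searched on both strands like all motifs here, was in 58.7% of subtelomeric and 44.9% of all windows, in 84.2% of subtelomeric windows with a summit, and in 12 of the 14 at 100 FPM or more (85.7%). Among other windows at that level it was in 94.4%. The ETS-type core CGGAAG was in 24.2% of subtelomeric and 19.4% of all windows. With a subtelomeric summit it was in 38.5% of windows under 20 FPM, 29.9% at 20 to 100 FPM and 14.3% (2 of 14, from 9 summit positions) at 100 FPM or more. Among other windows the same levels gave 31.4%, 30.8% and 38.9% (14 of 36), with no such fall. The longer CCGGAAGT, which contains it, was in 7.18% of subtelomeric and 4.12% of all windows. The E2F-type words TTTCGCGC and TTTGGCGC were in 0.485% and 0.921% of subtelomeric windows against 0.509% and 0.653% of all. The telomere unit TTAGGG was in 6.35% against 9.04%. LMF2 held 16 matches of GGGCGG and none of CGGAAG, and the YES1 window held 1 of CGGAAG. A match is a description of the letters and not a binding site.

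Under PD0332991, a larger share of subtelomeric than of all shared summits lay beyond the median shift, mostly below it. Of 68 members matched between PD0332991 and its control (geometric mean of the pair 5 FPM or higher), 6 were called higher and 14 lower. A call means an interval that excludes the median shift of all shared summits and a distance of at least 1.5-fold from it. Among all 879 shared summits 6.26% were called higher and 5.23% lower. The median log2 ratio of the members was 0.11 (-0.00 to 0.22), against 0.20 for the others and a shift of 0.19 over all. Members hold more fragments (median 108 against 33 in the control), which narrows their intervals. At 20 FPM or more, 19 of 52 members and 32 of 301 others were called, beside 14.4% of all 353.

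Of the 14 lower members, 11 lay away from gene ends, as did 41 of all 68 matched members, and 4 lay within 30 kb of a chromosome end, where 6 of the 68 were. Among the other summits, 13 of 32 lower calls lay away from gene ends, as did 237 of 811 pairs. An intergenic summit of 1q, 1838 kb from the end, had 31.4 FPM under PD0332991 and 110.6 in its control (log2 ratio -1.82, -2.24 to -1.41). The 9p summit 10.2 kb from the end, inside LOC102724813, had 15.2 and 39.5 FPM (-1.38). Intergenic summits of 20q and 7p had 32.5 and 84.2 FPM (-1.37) and 53.4 and 102.5 FPM (-0.94). GLB1L2, a galactosidase-like gene on 11q, had 6.81 and 12.6 FPM (-0.89, -1.95 to 0.09). The 5p summit near the end, named above for its level and not among the 5 largest lower ratios, had 749.5 and 1306 FPM (-0.80).

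Of the 6 higher members, 3 lay at gene ends, near the share among matched members (27 of 68). With matches within 100 bp, 3 members were called higher. ABR, on 17p, had 68.6 FPM under PD0332991 and 31.3 in its control (log2 ratio 1.13, 0.71 to 1.56). CANX, the endoplasmic reticulum chaperone calnexin on 5q, had 34.6 and 16.3 FPM (1.09). LMF2 and NCAPH2, a lipase maturation factor and a condensin subunit that share a start region on 22q, had 160.8 and 82.2 FPM (0.97). An intergenic summit of 21q had 186.5 and 99.6 FPM (0.90), and ZNF511 on 10q had 45.0 and 24.8 FPM (0.86).

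After RB siRNA, the members lay slightly above the shift, and 8 of 69 (11.6%) were called, beside 7.27% of all 743 shared summits. The median log2 ratio was 0.65 (0.46 to 0.69, n = 69) against 0.44 (0.41 to 0.47, n = 674) for the other shared summits. Of the 69, 5 were called higher and 3 lower, and of all 743 shared summits 3.10% and 4.17%. At 20 FPM or more, 7 of 48 members and 9 of 195 others were called, beside 6.58% of all 243. The higher ones were an intergenic summit of 7p with 65.6 FPM after RB siRNA and 20.1 in its control (log2 ratio 1.71, 1.29 to 2.13), LOC124900172 with 160.9 and 65.2 FPM (1.30), SLC16A3 with 30.5 and 12.6 FPM (1.27), MUC8 with 259.6 and 119.0 FPM (1.13) and an intergenic summit of 20q with 59.0 and 28.7 FPM (1.04). SLC16A3 encodes a lactate transporter. The lower ones lay below the shift of 0.45 and not below a ratio of 0 beyond their intervals. They were DIP2C with 30.5 and 35.3 FPM (-0.21), the 1q summit with 27.6 and 31.6 FPM (-0.19) and an intergenic summit of 22q with 49.9 and 55.8 FPM (-0.16). Against the shift of the summits of at least 20 FPM, 3 members were called higher and 3 lower, so these calls depend on that reference.

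The controls, with neither treatment between them, also differed. The median log2 ratio of the PD0332991 control over the RB siRNA control was 0.81 (0.72 to 0.94, n = 108) for the members and 0.58 (n = 1078) for the others. Of the 108, 26 were called higher and 8 lower, beside 7.67% and 7.34% of all 1186 shared summits. At 20 FPM or more, 27 of 63 members and 45 of 263 others were called, beside 22.1% of all 326. The intergenic 7p summit had 102.5 and 20.1 FPM (log2 ratio 2.35), MUC8 had 449.4 and 119.0 (1.92), PTPRN2 on 7q had 13.8 and 3.74 (1.89), the 10q summit had 278.6 and 76.2 (1.87) and the 1q summit had 110.6 and 31.6 (1.81). Called lower were F10-AS2 on 13q with 64.7 and 98.0 FPM (-0.60), LMF2 with 82.2 and 117.5 (-0.52), PRKAR1B, a protein kinase A subunit gene, with 89.1 and 98.9 (-0.15), ZNF511 with 24.8 and 27.01 (-0.12) and CANX with 16.3 and 17.5 (-0.11). These calls are relative to the shift of 0.59 over all shared summits, and the intervals of PRKAR1B, ZNF511 and CANX include a log2 ratio of 0. Against the shift of the summits of at least 20 FPM (0.78), 13 of 63 members were called higher and 11 lower, so the excess of higher calls depends on that reference.

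**Figure D5:**
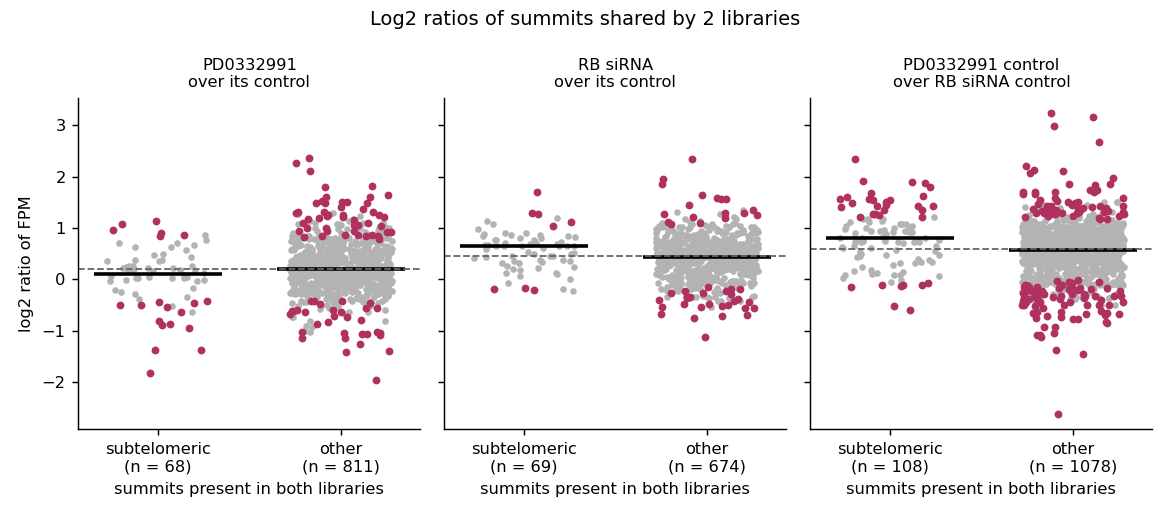
Log2 ratio of FPM for summits shared by 2 libraries, for subtelomeric and other summits in the 3 comparisons. Points are summits, called ones in red, black bars are medians and dashed lines are the median of all shared summits; the members' medians are 0.11, 0.65 and 0.81.

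These comparisons share control libraries, so the 4 levels are given side by side. At the 1q summit they were 110.6, 31.4, 31.6 and 27.6 FPM, high in the PD0332991 control alone. At the 7p summit they were 102.5, 53.4, 20.1 and 65.6 FPM, and at the 20q summit 84.2, 32.5, 28.7 and 59.0. At LMF2 they were 82.2, 160.8, 117.5 and 133.7 FPM, lowest in the PD0332991 control, and at CANX 16.3, 34.6, 17.5 and 17.7, high under PD0332991 alone. In both cases the library set apart also had its summit elsewhere within the matching distance. At LMF2 it lay at 50508059 against 50507920 or 50507921, and at CANX at 179698676 against 179698805 or 179698806. A treatment and the library that carries it cannot be told apart here.

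Most control summits of at least 5 FPM, subtelomeric or not, had no partner in the treated lists. Of 263 members of at least 5 FPM in the PD0332991 control, 68 (25.9%, 20.7 to 31.6) were matched under PD0332991, against 37.9% of 2017 others. Of those members 129 lay in an interval with a higher summit and 51 lay in no interval. Of 222 in the RB siRNA control, 67 (30.2%, 24.2 to 36.7) were matched after RB siRNA, against 41.9% of 1517 others, 122 lay in such an interval and 28 in none. Positions in no interval were 19.4% of members and 2.33% of others under PD0332991, and 12.6% and 1.32% after RB siRNA, while the share beside a higher summit was 49.0% and 52.4%, and 54.95% and 53.7%. Of 112 members of that level under PD0332991 and 114 after RB siRNA, 68 (60.7%) and 70 (61.4%) were matched in the control, against 65.3% and 69.1% of others. The lists thus give no level for most unmatched members.

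Zinc finger genes with ZNF numbers, many of them repressors that cluster near the end of 19q, were the largest gene list examined. Of 81 within the windows, 13 (16.05%), 4 (4.94%), 13 (16.05%) and 6 (7.41%) had a summit at a gene end, beside 11.1%, 3.96%, 11.1% and 4.30% of all subtelomeric protein-coding genes. Their levels were moderate. ZNF837 had 14.6, 13.8 and 18.98 FPM in the PD0332991 control, the RB siRNA control and RB siRNA, and ZNF274, which binds other zinc finger genes, had 12.6, 6.32 and 10.7 in the same libraries. ZNF672 had 26.4, 27.2 and 13.8 FPM in the first 3 lists. The shared start region of ZNF324 and ZNF446 had 24.8 FPM in the PD0332991 control and 12.9 in the RB siRNA control.

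ZNF10 and ZNF891, which share a summit, had 8.95 FPM in the PD0332991 control and 9.90 after RB siRNA. ZNF34 had 29.3 and 28.8 FPM in the PD0332991 control and under PD0332991. ZNF124 had 2.44 and 2.87 FPM in the controls, and ZNF596 had 14.7, 6.04 and 13.2 FPM under PD0332991, in the RB siRNA control and after RB siRNA.

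Of 11 globin genes and their neighbours at the end of 16p, 1, 0, 1 and 0 (9.09%, 0%, 9.09% and 0%) had a summit at a gene end. It was NPRL3, whose introns hold the globin enhancers, with 22.8 and 12.1 FPM in the controls. Of 17 genes of families duplicated near chromosome ends, 16 of them inside the windows, 0, 2, 0 and 0 (0%, 11.8%, 0% and 0%) had one. Under PD0332991 these were DUX4, the germline factor encoded in the 4q repeat array, with 10.999 FPM, and FRG1 with 2.095 FPM from 4 fragments. Among all subtelomeric protein-coding genes the shares were 11.1%, 3.96%, 11.1% and 4.30%. Counts of 1 or 2 genes are too small to set either list apart from them. Reads from such copies cannot be assigned with certainty to 1 of them.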

How the data were processed

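The 4 CUT&Tag peak lists hold 1 library each. Per the submitters' processing notes, bcl2fastq 2.17, Trimmomatic 0.33, Bowtie2, MACS2 2.1.0 and hg38 were used; their roles and settings are not given in the sources used here. The authors deposited for each interval a fold of treatment over background at the summit (a ratio), its −log10 p and −log10 q, a score that is the whole part of 10 times a listed column, and the summit's offset.

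The fold and −log10 p were inverted, with a pseudocount of 1, to the number of treatment fragments at each summit and in the library. Every value came out whole within 0.05, but that limit was also used to choose among possible solutions. For 46, 22, 82 and 7 intervals several solutions passed, and the one of lowest background was taken. A window of 10000 bp and an effective genome size of 2.7 Gb were assumed; the genome size scales all FPM alike. The inversion was tested on simulated data. Depth was 1909342 to 3479667 treatment fragments.

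Groups followed the labels. With 1 library per group, ratios of matched summits carry exact conditional 95% intervals, shares Clopper-Pearson intervals and medians order-statistic intervals, all for counting error only. The members, lists and limits were chosen with earlier results of these data known. Genes were named by rank: the highest gene-end and other members per library, the 10 highest matched in all 4 libraries, up to 5 called members per direction, the 3 nearest to an end, and ZNF genes with a summit in at least 2 libraries; exceptions are stated. Alternatives changed the distance, gene-end limit, matching, minimum level, fold and list threshold. Python 3.11.15, numpy 2.4.6, pandas 2.3.3, scipy 1.17.1 and matplotlib 3.10.9 were used.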

Additional observations from a re-analysis of the deposited data

How the results depend on the processing

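Of 207 alternative values, 132 stayed the same, 72 moved and 3 reversed. The same means inside the interval of the main value, for counts within 1.5-fold of it, and for the authors' fold in direction only. Otherwise a reversal was counted only where the main interval left out the compared value, so some changes of order are not among the 3. The gene-end share of members was above that of the others in 9 of 24 alternatives and below it in 15. The share of summits near the ends stayed above the share of length in 16 of 16 alternatives, and the members' median stayed above that of the others in 27 of 28. With a limit of 1 Mb the members made up 2.31%, 2.21%, 2.22% and 2.92% of summits on 1.52% of the length, the median of the RB siRNA control was 5.75 FPM, and 102 and 106 genes had a summit in the PD0332991 and RB siRNA controls. The gene-end share was then 44.3% against 40.6% under PD0332991 (reversed), 36.96% against 28.3% in the RB siRNA control and 45.9% against 43.7% after RB siRNA. With a limit of 5 Mb the members made up 9.99%, 10.6%, 9.88% and 10.7% on 7.59% of the length, the medians were 4.47, 10.5, 2.87 and 12.8 FPM, and 337, 126, 339 and 121 genes had a summit. The share of at least 20 FPM was then 19.96%, 32.4% and 11.4% in the first 3 libraries.

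Among summits of −log10 p of at least 5, members were 23.3%, 28.2%, 29.02% and 52.6%. Their medians were 74.8 against 51.9, 188.8 against 181.7, 54.7 against 45.7 and, reversed after RB siRNA, 185.5 against 208.0 FPM. All of them passed 20 FPM (100%), as did the others. The gene-end share was 40.2% against 52.4%, 40.9% against 30.4% (reversed under PD0332991), 48.2% against 50.4% and 45.0% against 27.8%. The cause of these reversals was not tested. A gene end within 500 bp gave 24.4% and 23.6% in the controls, and one within 2500 bp gave 37.8%, 40.5% and 37.7% in the first 3 libraries. A minimum of 10 FPM was passed by 42.5%, 66.2%, 32.1% and 68.3% of members, and one of 50 FPM by 14.3%, 25.7%, 7.49% and 26.6%.

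The counts of called members moved most with the minimum fold, by construction. Under PD0332991, 0 members were higher and 6 lower at 2-fold or more, 11 were higher with no minimum fold, 3 were higher with matches within 100 bp and 8 were lower within 1 Mb. After RB siRNA, 1 was higher and 0 lower at 2-fold or more, 18 were higher and 5 lower with no minimum fold, 3 were higher and 3 lower at 20 FPM or more against the shift of those summits, 2 were higher and 1 lower within 1 Mb, and 8 were higher within 5 Mb. Between the controls, 8 were higher and 2 lower at 2-fold or more, 5 were lower with matches within 100 bp, 13 were higher and 11 lower at 20 FPM or more against the shift of those summits, 14 were higher within 1 Mb, and 41 were higher and 16 lower within 5 Mb. With a repeat score of at least 50%, 10 of the 14 subtelomeric windows at 100 FPM or more, from 9 summit positions, held a repeat. So did 8 of the 36 other windows at that level (22.2%). This alternative score, the alternative without summits within 30 kb of an end and the one at the genome-wide background were chosen after seeing the data. No paired analysis was possible because each group has 1 library. Most summits rest on few fragments, so a summit missing from a list may lie below its detection.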
